A study of Mus musculus with 12 samples.

Results

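The genes described here are 45 that act in the copying of DNA, chosen by symbol and followed across mouse forelimb and bone marrow cultures in which Impdh2, the enzyme of the rate-limiting step of guanine nucleotide synthesis, was deleted. All 45 were found among the 51826 gene identifiers counted in forelimb and among the 55401 counted in the cultures, and all 45 passed the filter on low counts in both, leaving 45 of 19987 and 45 of 14030 genes tested. RNA sequencing covered 12 libraries, 2 in each of 6 groups. Forelimb was taken at E12.5 from WT or from Prx-cKO embryos, in which a Cre driven by the Prx promoter deletes Impdh2 in limb mesenchymal progenitors, so that other cells of the limb should keep the gene. The culture libraries came from marrow cells of WT or LysM-cKO mice, in which a Cre active in myeloid cells deletes Impdh2. Per the labels' protocols, marrow cells first spent 3 days in L929 supernatant, a source of the macrophage growth factor M-CSF. They were then given RANKL, the cytokine that turns macrophages into osteoclasts, at 40 ng/ml. The protocols also give an M-CSF equivalent of 20 ng/ml. This protocol text is the same for every culture sample, so it does not separate those titled R0D3 from those titled R40D3. R40D3 and R0D3 in the titles of the culture samples are not spelled out in the labels. That R40 and R0 name RANKL doses is an inference, and the titles are used here as names only. Whether the WT animals carried floxed alleles or a Cre, the age and sex of the marrow donors, and whether replicates came from separate animals or pools are not given in the labels. The p-values therefore measure the spread between these libraries, which may be technical.

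DNA replication begins at origins that are licensed before S phase, when the origin recognition complex, Cdc6 and Cdt1 load the ring-shaped Mcm2 to Mcm7 helicase onto DNA. In S phase Cdc45 and the GINS complex switch the helicase on, polymerase alpha with primase lays primers, and polymerases delta and epsilon extend them with the sliding clamp Pcna. Many of these genes are transcribed under E2F factors as cells leave G1, so their messenger RNA is widely read as a sign of dividing cells. Guanine nucleotides are needed for both RNA and DNA synthesis.

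The deleted gene was lower in every knockout library. Impdh2 (chromosome 9, 108560286 to 108565584, GRCm38) had 260 and 272 CPM (read counts scaled to library size and normalised between libraries) in the WT forelimb pair and 170 and 199 CPM in the Prx-cKO pair. That difference, a log2 fold change of -0.53 (SE 0.16), had an adjusted p of 0.443 in edgeR's quasi-likelihood test. In the cultures Impdh2 fell by 1.73 (SE 0.15) at R40D3 and by 1.81 (SE 0.16) at R0D3 on the log2 scale, with adjusted p of 0.0386 and 0.0324. Library totals ran from 28892215 to 69466572 counts in forelimb and from 16009146 to 19221865 in the cultures. Markers of osteoclasts, such as the protease gene Ctsk, summed to 12907 to 37999 CPM at R40D3 and to 313 to 455 CPM at R0D3, where Calcr, the calcitonin receptor gene, had 0 counts in every library. The label osteoclast is therefore not matched by its markers at R0D3. Macrophage markers summed to 10306 to 13662 CPM in the cultures.

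The 45 genes form 7 groups by role. Origin licensing holds Orc1, Orc6, Cdc6, Cdt1 and Mcm2 to Mcm7, and helicase activation holds Mcm10, Cdc45 and Gins1 to Gins4. The polymerase group holds Pola1, Pola2, Prim1, Prim2, Pold1, Pold2, Pole and Pole2. Clamp, clamp loaders and strand joining hold Pcna, Rfc1 to Rfc5, Dscc1, Chtf18, the flap nuclease Fen1 and the ligase Lig1. Single-strand binding and fork protection hold Rpa1, Rpa2, Rpa3, Timeless and Tipin. Chromatin assembly and marking hold Chaf1a, Chaf1b and Uhrf1, and S-phase entry holds the cyclins Ccne1 and Ccne2 and the factor E2f1.

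The promoters of these genes were read for the DNA words that E2F factors favour, because members that move together are often described through that family. RefSeq promoter windows (GRCm38.p6), each from 250 bases before to 50 bases after a transcription start, were at hand for 35 of the 45 genes. At least 1 of the words TTTCCCGC, TTTGGCGC, TTTCGCGC or TTTGCCGC, on either strand, stood in the windows of 14 of the 35 genes (40%), compared with 704 of 27025 genes (2.6%) in the whole table. Counted by gene, the share was 28.6% among 28 other replication genes with windows and 6.67% among 15 mitosis genes. Counted by window, it was 34.1% for the 41 windows of the 35 genes and 3% for all windows of similar base composition. Licensing genes with a word were Orc1, Cdc6, Cdt1, Mcm3, Mcm5, Mcm6 and Mcm7. The CCAAT word, also read as ATTGG on the other strand, stood in 22 of the 35 genes (62.9%) and in 41.1% of all genes. Its share was 46.4% among the other replication genes and 86.7% among the mitosis genes, so it was not particular to the 45. The AP-1 word TGANTCA, a common site of osteoclast factors, stood in 0 of the 35 and in 8.97% of all genes. It also stood in 0 of the 15 mitosis genes and in 7.14% of the other replication genes. A match is a run of letters and not a measured binding site, and words can overlap.

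The stretches below, each the 200 bases before a RefSeq start and written 5′ to 3′ on the gene's strand, show 3 named genes that hold an E2F word there (in capitals), 1 that holds CCAAT boxes but no E2F word (CCAAT in capitals) and 1 that holds neither. The stretches of Mcm5, Pola1 and Uhrf1 also hold CCAAT or ATTGG, which is left in lower case there. They are Mcm5 (chr8:75109309-75109508, plus strand), Pola1 (chrX:93632156-93632355, minus strand), Uhrf1 at the second of its starts (chr17:56304113-56304312, plus strand), Mcm10 (chr2:5012792-5012991, minus strand) and Chaf1b (chr16:93883701-93883900, plus strand). In Mcm5 the words TTTCGCGC and GCGCCAAA overlap at positions -153 to -142, counted back from -1 just before the start.
Mcm5: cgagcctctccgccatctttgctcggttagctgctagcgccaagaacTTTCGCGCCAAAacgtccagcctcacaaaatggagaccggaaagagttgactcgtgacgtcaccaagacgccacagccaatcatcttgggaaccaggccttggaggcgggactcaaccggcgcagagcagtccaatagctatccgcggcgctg
Pola1: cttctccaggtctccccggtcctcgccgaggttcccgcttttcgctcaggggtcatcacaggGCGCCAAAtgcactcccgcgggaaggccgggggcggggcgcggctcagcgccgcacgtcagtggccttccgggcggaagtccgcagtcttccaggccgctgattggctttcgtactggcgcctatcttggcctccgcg
Uhrf1: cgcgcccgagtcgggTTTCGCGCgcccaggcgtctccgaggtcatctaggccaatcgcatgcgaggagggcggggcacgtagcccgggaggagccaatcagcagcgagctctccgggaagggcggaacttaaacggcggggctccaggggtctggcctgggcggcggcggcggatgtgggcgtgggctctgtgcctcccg
Mcm10: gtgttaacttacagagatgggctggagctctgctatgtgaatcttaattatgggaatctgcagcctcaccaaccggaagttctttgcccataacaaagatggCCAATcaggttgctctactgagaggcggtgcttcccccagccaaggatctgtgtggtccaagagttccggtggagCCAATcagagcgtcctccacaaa
Chaf1b: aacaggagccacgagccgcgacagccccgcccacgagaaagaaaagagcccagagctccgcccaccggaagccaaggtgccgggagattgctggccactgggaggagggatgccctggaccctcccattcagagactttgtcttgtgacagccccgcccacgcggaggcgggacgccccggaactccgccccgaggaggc

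In E12.5 forelimb the replication genes were higher in Prx-cKO than in WT for 44 of 45, with 0 called by edgeR. Over all genes tested, 47.2% had a fitted log2 fold change above 0. The median of the 45 was 0.38 (range -0.063 to 1.63), while all genes had a median of -0.030. The summed level of the 45 was 4922 and 5308 CPM in the WT libraries and 6185 and 7210 CPM in the Prx-cKO libraries, so the groups did not overlap. Of the 45, 0 were called at an adjusted p below 0.05 by edgeR, as were 0 of 19987 genes (0%). At an unadjusted p below 0.05, 17 of the 45 were higher and 0 were lower, where 10.5% of all genes passed that mark (5.87% higher and 4.61% lower). The 17 were Cdt1, Ccne1, Cdc45, Fen1, Rfc2, Mcm10, Chtf18, Orc6, E2f1, Chaf1b, Lig1, Mcm7, Pold2, Rfc5, Pold1, Rpa2 and Rfc4, which cover all 7 roles. Both Prx-cKO libraries lay above both WT libraries for 33 of the 45, against 22.2% of all genes, and both lay below for 0, against 21%. The 12 genes whose groups overlapped were Gins1, Gins3, Gins4, Pola1, Prim1, Pole2, Rfc1, Dscc1, Rpa1, Rpa3, Timeless and Ccne2. In bulk tissue, a larger share of dividing cells and more of these RNAs per cell cannot be told apart.

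**Figure D1:**
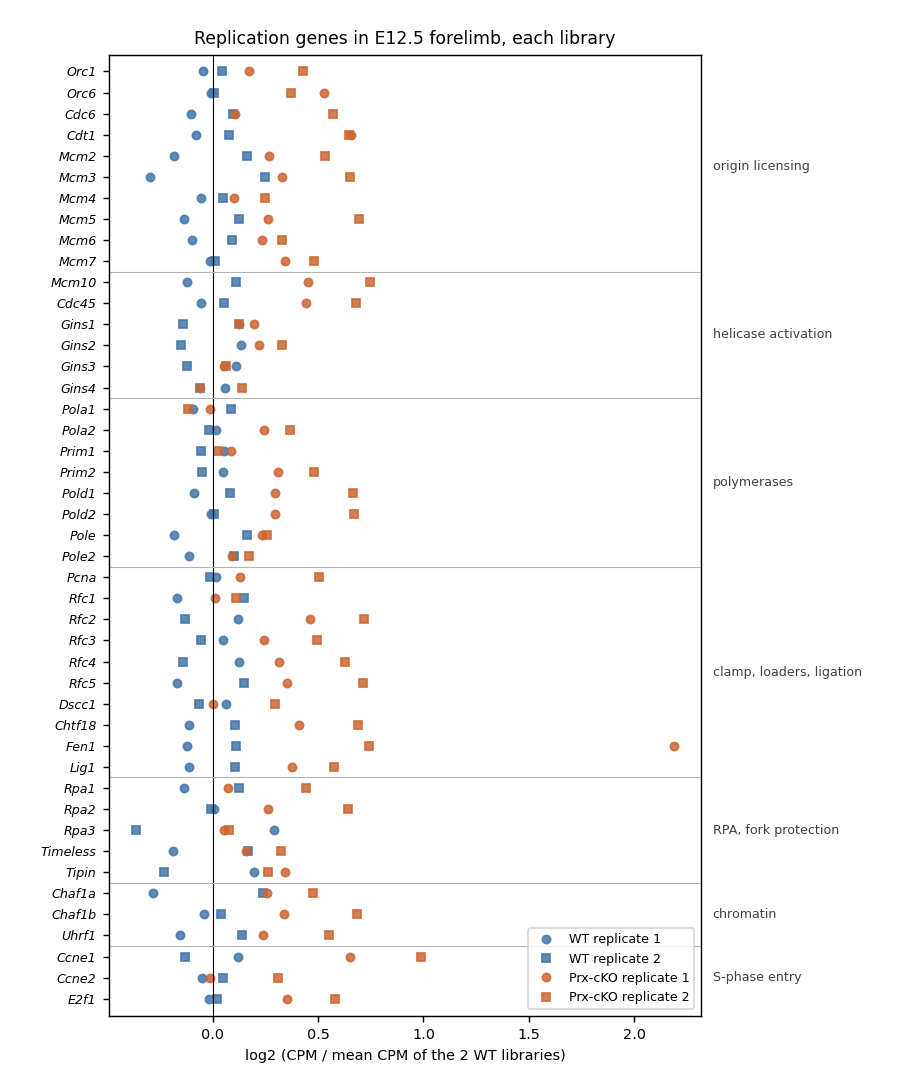
Level of each of the 45 replication genes in each E12.5 forelimb library, as log2 of its CPM over the mean CPM of the 2 WT libraries (horizontal axis), with genes grouped by role. Each point is 1 library; 33 genes have both Prx-cKO points to the right of both WT points.

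Both Prx-cKO libraries lay above both WT libraries for 10 of 10 licensing genes, against 22.2% of all genes. The median log2 fold change of the group was 0.41. Cdt1, which brings the helicase to origins (chromosome 8, 122568015 to 122573554), measured 58.3 and 65.1 CPM in the WT libraries, against 97.2 and 96.7 CPM in those of Prx-cKO. The Prx-cKO values were nearly equal and well above both WT values. Its log2 fold change of 0.65 (SE 0.15) had an unadjusted p of 0.0062 and an adjusted p of 0.398. Mcm5, a helicase subunit and the most abundant gene of its group in CPM, had 314 and 375 CPM in the WT pair and 413 and 557 CPM in the Prx-cKO pair (0.49, SE 0.21). Mcm4 had the smallest difference of the group, at 0.18 (SE 0.15). Among Mcm2 to Mcm7, whose products form 1 ring, the differences ran from 0.18 to 0.50.

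Helicase activation was split. Cdc45, which completes the active helicase, measured 54.0 and 58.2 CPM in the WT libraries, against 76.2 and 89.9 CPM in those of Prx-cKO, a log2 fold change of 0.57 (SE 0.16, adjusted p 0.441). Mcm10, which binds the active helicase, differed by 0.61 (SE 0.18). The 4 GINS genes differed less: Gins2 by 0.28, Gins1 by 0.16, Gins3 by 0.058 and Gins4 by 0.042, and for Gins1, Gins3 and Gins4 the WT and Prx-cKO values overlapped. Of Gins2, 67.3% of the exonic length also lies in exons of Gse1 on the other strand, so its reads are uncertain.

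Polymerase genes had a median of 0.28, with Pold1 and Pold2 of polymerase delta at 0.49 and 0.50. Pold1 had 117 and 131 CPM in the WT pair and 152 and 196 CPM in the Prx-cKO pair. Pola1, the catalytic subunit of polymerase alpha (chromosome X), was the only member with a value below 0. It had 53.6 and 60.6 CPM in WT against 56.7 and 52.8 CPM in Prx-cKO, so the groups overlapped (-0.063, SE 0.16). Prim1, the primase subunit that works with it, differed by 0.055 (SE 0.14). Pola1 holds an E2F word in the stretch shown above and Prim1 does not; across the 35 genes with a window, the median forelimb difference was 0.39 for the 14 with a word and 0.47 for the 21 without.

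Among clamp, loader and joining genes the median was 0.48. Pcna had the highest level per length of all 45, at 183 ± 2.46 CPM per kilobase in WT against 229 ± 41.9 in the knockout (SD, n = 2), followed by Mcm5 at 86.3 ± 10.9 and 121 ± 25.5 (SD, n = 2). The lowest levels per kilobase in WT were those of Dscc1 (4.51 CPM), Pola1 (6.48 CPM) and Orc1 (6.65 CPM). Pcna itself measured 443 and 434 CPM in the WT libraries, against 479 and 621 CPM in those of Prx-cKO (0.33, SE 0.18). Fen1, which trims the flaps of Okazaki fragments (chromosome 19, 10199132 to 10204169), had the largest difference of all 45. Its WT libraries gave 20.4 and 24.0 CPM and its Prx-cKO libraries 101 and 37.2 CPM. The Prx-cKO libraries were far apart, and the log2 fold change of 1.63 carried an SE of 0.48 (adjusted p 0.443). Of its exonic length 84.2% overlaps exons of Gm10143 and Tmem258 on the other strand, and Gm10143 stood at 22.1 and 9.14 CPM in WT and 7.62 and 2.80 CPM in Prx-cKO, so the Fen1 value is uncertain. Whether the counting used strand is not given in the sources used here. The loader gene Rfc2 differed by 0.60 (SE 0.18), and Rfc1, the large subunit of the same complex, by 0.064 (SE 0.17).

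Of the remaining groups, S-phase entry had a median of 0.47, chromatin 0.40 and single-strand binding 0.27. Ccne1, the cyclin that opens S phase (chromosome 7, 38097984 to 38107534), had 74.9 and 63.0 CPM in the WT pair and 108 and 137 CPM in the Prx-cKO pair. Both Prx-cKO libraries lay above both WT libraries, and the log2 fold change of 0.83 (SE 0.19) had an unadjusted p of 0.0065 and an adjusted p of 0.398. Ccne2, the other cyclin gene of the group, differed by 0.16 (SE 0.18) with overlapping values. Uhrf1, which reads newly copied DNA for maintenance methylation, measured 241 and 296 CPM in the WT libraries, against 317 and 394 CPM in those of Prx-cKO (0.40, SE 0.19). Rpa1, the large subunit of the single-strand binding protein, had 156 and 187 CPM in the WT pair and 180 and 232 CPM in the Prx-cKO pair, with the groups overlapping (0.27, SE 0.19). DESeq2 called Ccne1 (adjusted p 0.0368) and Fen1 (adjusted p 0.0292), 2 of the 45. Over all genes it called 390 of the 19987 that passed the filter. The Fen1 value is uncertain, as given above.

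Genes that neighbour the 45 in function had medians nearer 0 in forelimb. The other replication genes, 32 in number and including the origin subunits Orc2 to Orc5, had a median of 0.13, with 21 higher and 11 lower and 0 called. Mitosis genes had a median of 0.21, with 13 of 18 higher, 5 lower and 0 called. The mitotic kinase gene Plk1 averaged 132 ± 1.06 CPM over the WT pair and 176 ± 16.5 CPM over the other (SD, n = 2). Mki67, Cenpe, Cenpf and Kif11 had lower means in Prx-cKO. Mki67 measured 328 and 581 CPM in WT and 345 and 363 CPM in Prx-cKO, which overlapped. The E2F and RB family list had a median of 0.12 (15 of 24 higher). Cyclin-dependent kinase inhibitors lay on both sides of 0. Cdkn1a, the p21 gene that responds to p53, averaged 25.3 ± 0.792 CPM over the WT libraries and 111 ± 5.17 CPM over those of Prx-cKO (SD, n = 2). The difference was 2.12 (SE 0.15, adjusted p 0.118) on the log2 scale. Cdkn1b, the p27 gene, averaged 46.6 ± 5.92 CPM in WT against 22.3 ± 0.167 CPM in Prx-cKO (SD, n = 2), with a value of -1.06 (SE 0.18, adjusted p 0.332).

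Markers of some cell types of the limb also differed between the same libraries, while others differed little. The fibroblast (0.019), erythroid (0.042), surface ectoderm (0.079) and nerve and glia (0.11) lists had medians near 0, each with genes on both sides. Fibroblast markers summed to 1606 and 1511 CPM in WT and 1600 and 1505 CPM in Prx-cKO. Cartilage markers were lower in Prx-cKO for 5 of 5 (median -1.47), with sums of 790 and 882 CPM in WT and 341 and 279 CPM in Prx-cKO. Limb mesenchyme markers were lower for 5 of 7 (median -0.60), from 1343 and 1559 CPM to 966 and 1044 CPM. Muscle markers were higher for 6 of 6 (median 1.10), from 272 and 279 CPM to 806 and 382 CPM, and macrophage markers for 7 of the 7 tested, of 8 listed (median 1.16), from 45.5 and 44.8 CPM to 101 and 92.5 CPM. Endothelial markers were higher for 5 of 5 (median 0.44), from 120 and 124 CPM to 163 and 165 CPM. No listed marker of the cartilage, mesenchyme, muscle and macrophage lists was at 0 counts. The part of these differences in the replication gene values was not tested. The median of the 45 was 0.49 with replicate 1 of Prx-cKO left out and 0.26 with replicate 2 left out, with 44 and 42 of the 45 above 0.

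**Figure D2:**
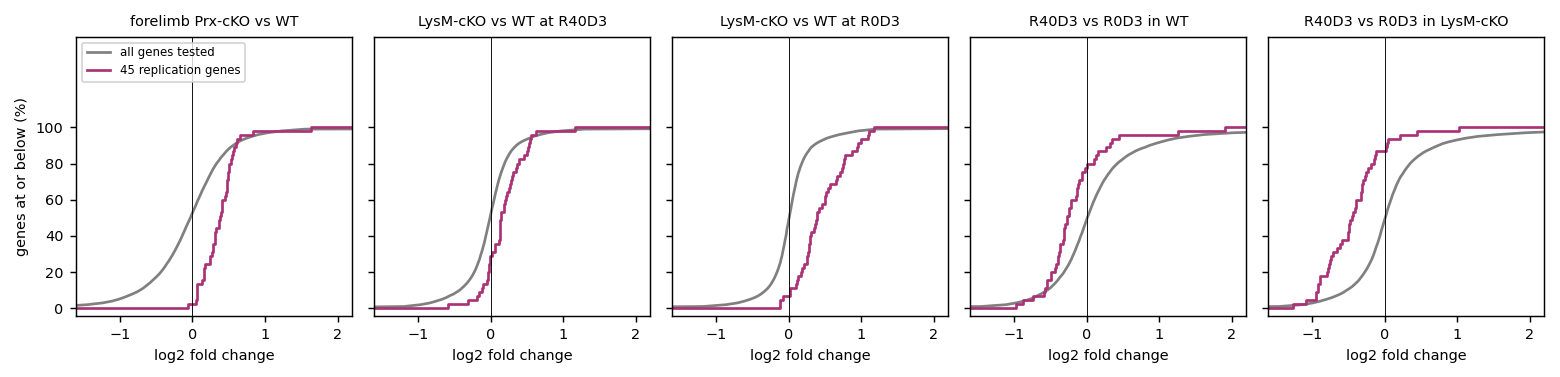
Cumulative share of genes (vertical axis, percent) at or below each log2 fold change (horizontal axis) in the 5 comparisons of 2 groups, for all genes tested (grey) and for the 45 replication genes (purple). The purple steps lie to the right of the grey curve over most of their range in forelimb and at R0D3 (medians 0.38 and 0.39) and to the left in the comparisons of R40D3 with R0D3 (medians -0.26 and -0.45).

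In the cultures the 45 genes were less abundant, with sums of 727 to 1478 CPM in the 8 libraries, although forelimb and cultures were normalised separately. Per kilobase of exon, Pcna was again highest in WT at R0D3 (77.6 ± 9.14 CPM, SD, n = 2), ahead of Gins4 (16.9 ± 1.25 CPM) and Mcm6 (13.4 ± 1.25 CPM), and Dscc1 was lowest (0.225 CPM). At R0D3, 42 of the 45 were higher in LysM-cKO than in WT, with a median log2 fold change of 0.39, compared with 51.7% of all genes above 0 and an all-gene median of 0.0084. One library stood apart. The sums were 854 and 988 CPM in WT, 878 CPM in LysM-cKO replicate 1 and 1478 CPM in LysM-cKO replicate 2. Within same-numbered pairs the median difference of log2 CPM was 0.068 in replicate 1 and 0.69 in replicate 2, and without LysM-cKO replicate 2 the median was -0.068, with 20 of the 45 above 0. Both LysM-cKO libraries lay above both WT libraries for 6 of the 45 (Orc1, Cdt1, Pola2, Dscc1, Timeless and Chaf1a), where 17.5% of all genes did, and below for 0 (14.8%). Of the 45, 0 were called, against 2 of all genes (0.0143%), and at an unadjusted p below 0.05 there were 3, all higher, where 4.42% of all genes passed (3.02% higher and 1.4% lower). With the replicate number as a block, 0 of the 45 were called (0.0214% of all genes), and DESeq2 called 0. At an unadjusted p below 0.05 the block gave 15 higher and 0 lower, where 10.5% of all genes passed (6.53% higher and 3.99% lower). Within both same-numbered pairs 27 of the 45 were higher (29.9% of all genes) and 3 lower (27.8%).

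The 3 genes with the smallest p at R0D3, picked by that p, were among the 6 with both LysM-cKO libraries above both WT libraries. Orc1, the largest origin-binding subunit (chromosome 4, 108579423 to 108614833), had 1.22 and 1.68 CPM in the WT pair and 2.24 and 4.0 CPM in the LysM-cKO pair, a log2 fold change of 1.10 (SE 0.36, adjusted p 0.997). Timeless, which steadies the fork, had 2.74 and 4.97 CPM in WT against 5.52 and 11.0 CPM in LysM-cKO (1.10, SE 0.44, adjusted p 0.997). Chaf1a, the large subunit of the histone chaperone that follows the fork, went from 11.1 and 13.9 CPM in WT to 15.2 and 27.7 CPM in LysM-cKO (0.78, SE 0.32, adjusted p 0.997). In each of these genes replicate 2 was the higher LysM-cKO library. Of the exonic length of Chaf1a, 52.5% overlaps Ubxn6 on the other strand. Mcm10 had the largest difference, 1.18 (SE 0.64), with 2.80 and 7.03 CPM in WT against 4.66 and 17.6 CPM in LysM-cKO, so that the groups overlapped. Without LysM-cKO replicate 2 its value was -0.068. Gins4, a GINS subunit, had the lowest value, -0.12 (SE 0.12), with 21.6 and 24.0 CPM in WT against 19.4 and 22.5 CPM in LysM-cKO.

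The same library was high for other genes of dividing cells. Mitosis genes were higher in LysM-cKO at R0D3 for 18 of 18 (median 0.98), with 0 called by adjusted p. Their sums were 225 and 365 CPM in WT, 358 CPM in LysM-cKO replicate 1 and 840 CPM in LysM-cKO replicate 2, and the median difference within pairs was 0.66 in replicate 1 and 1.16 in replicate 2. Mki67, the proliferation marker, averaged 74.1 ± 19.4 CPM over the WT pair and 153 ± 60.6 CPM over the LysM-cKO pair (SD, n = 2), a difference of 1.05 (SE 0.34, adjusted p 0.997) on the log2 scale. Cdkn1a averaged 290 ± 23.0 CPM in WT and 384 ± 67.4 CPM in LysM-cKO (SD, n = 2), without overlap. Its value was 0.40 on the log2 scale (SE 0.14, adjusted p 0.997). Of the 7 kinase inhibitor genes, 3 were higher and 4 lower. The other replication genes had a median of 0.10, with 22 of 32 higher. Fibroblast markers were low in that library. Of the 5 tested, 4 were lower in LysM-cKO. The 6 listed, Col1a1, Col1a2, Col3a1, Sparc, Dcn and Lum, summed to 1547 and 1373 CPM in WT, to 1749 CPM in LysM-cKO replicate 1 and to 569 CPM in LysM-cKO replicate 2. Lum was at 0 counts in both R0D3 libraries numbered 2. Markers of granulocyte progenitors were lower in LysM-cKO for 9 of the 9 tested, of 10 listed (median -0.84), with sums of 428 and 166 CPM in WT and 220 and 118 CPM in LysM-cKO. The part of these cell types in the replication gene values was not tested.

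**Figure D3:**
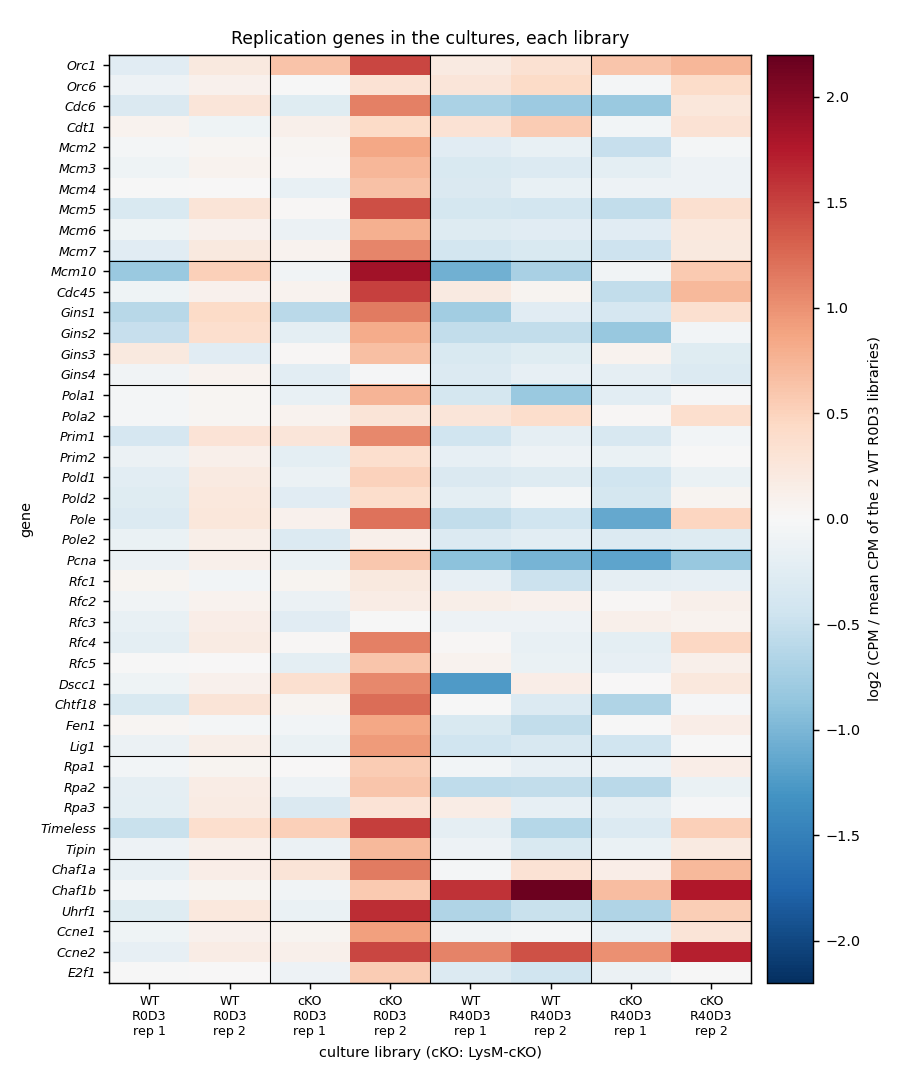
Level of each of the 45 replication genes (rows, grouped by role) in each of the 8 culture libraries (columns), as log2 of CPM over the mean CPM of the 2 WT R0D3 libraries; red is higher and blue lower. LysM-cKO R0D3 replicate 2 is red for most genes, and Pcna and Chaf1b stand apart in the R40D3 columns.

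At R40D3 the median log2 fold change of the 45 between LysM-cKO and WT was 0.14, with 32 higher and 13 lower in LysM-cKO, compared with 48.6% of all genes above 0 and an all-gene median of -0.0076. Sums were 772 and 780 CPM in WT and 727 and 931 CPM in LysM-cKO, so the LysM-cKO libraries lay on both sides of WT. The median difference was -0.048 in the pair numbered 1 and 0.31 in the pair numbered 2. Without LysM-cKO replicate 2 the median was -0.069, with 15 of the 45 above 0, and without LysM-cKO replicate 1 it was 0.37, with 40 above 0. Of the 45, 0 were called, where 0.0143% of all genes were, and 0 had an unadjusted p below 0.05, where 7.47% did (4% higher and 3.47% lower). With the replicate block 0 were called as well (0.214% of all genes), and DESeq2 called 0. Both LysM-cKO libraries lay above both WT libraries for 9 of the 45 (19.7% of all genes) and below for 1 (18.9%). Within both same-numbered pairs 16 were higher (31.7% of all genes) and 5 lower (34.3%), and with the block 1 was higher and 2 lower at an unadjusted p below 0.05 (18.5% of all genes, 8.86% higher and 9.67% lower). The 9 above in both libraries were Orc1, Mcm3, Mcm4, Mcm10, Gins3, Pola1, Rfc3, Fen1 and E2f1.

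Mcm10 again had the largest positive difference, with 2.35 and 2.99 CPM in WT against 4.65 and 7.33 CPM in LysM-cKO. The groups did not overlap, and the log2 fold change was 1.16 (SE 0.74, adjusted p 0.688). Cdt1 was the 1 gene with both LysM-cKO libraries below WT, at 28.7 and 33.9 CPM in WT against 21.9 and 28.5 CPM in LysM-cKO (-0.31, SE 0.17, adjusted p 0.663). Chaf1b had the lowest value, -0.59 (SE 0.36, adjusted p 0.683), with 28.7 and 42.5 CPM in WT against 15.2 and 32.2 CPM in LysM-cKO, which overlapped. Fen1 had 5.07 and 4.40 CPM in WT against 6.35 and 7.08 CPM in LysM-cKO (0.50, SE 0.31, adjusted p 0.688). Mitosis genes were higher for 18 of 18 (median 0.79, 0 called), with sums of 195 and 186 CPM in WT and 234 and 457 CPM in LysM-cKO. Within both pairs 16 of the 18 were higher (31.7% of all genes). Both LysM-cKO libraries lay above both WT libraries for 13 (19.7% of all genes). Cdkn1a averaged 197 ± 12.1 CPM in WT and 280 ± 24.6 CPM in LysM-cKO (SD, n = 2), without overlap. Its value was 0.51 on the log2 scale (SE 0.14, adjusted p 0.648). Of the 7 kinase inhibitor genes, 4 were higher and 3 lower. Osteoclast markers were lower for 9 of 9 (median -0.65, 0 called, 1 with the block), with sums of 25774 and 37999 CPM in WT and 12907 and 24254 CPM in LysM-cKO, none at 0 counts. Fibroblast markers summed to 1793 and 1729 CPM in WT and to 1612 and 482 CPM in LysM-cKO, 4 of the 5 tested were lower, and Dcn and Lum were at 0 counts in LysM-cKO replicate 2. Markers of granulocyte progenitors were lower for 9 of the 9 tested, of 10 listed (median -1.24, 0 called), with sums of 545 and 127 CPM in WT and 199 and 88.7 CPM in LysM-cKO. The part of these cell types in the replication gene values was not tested.

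**Figure D4:**
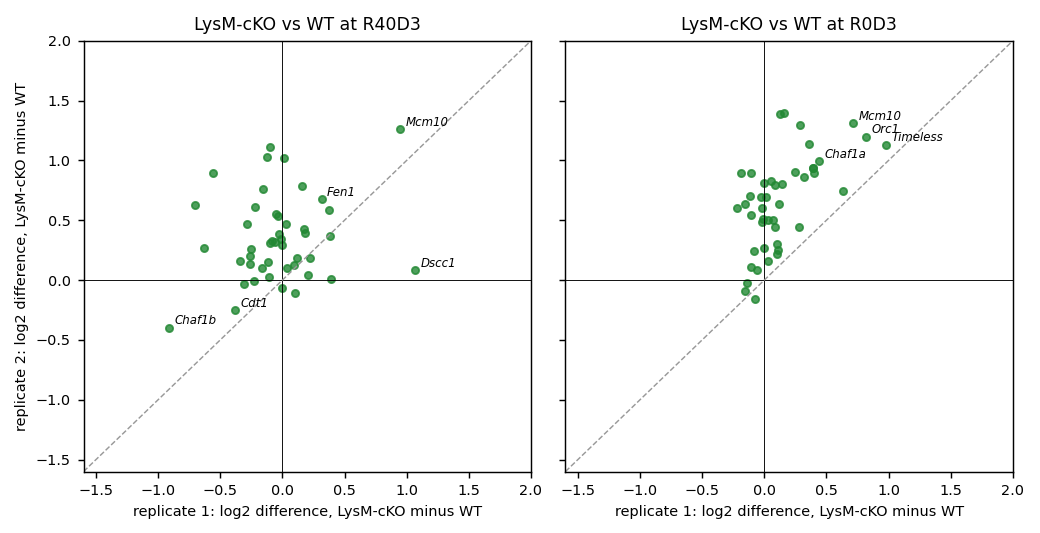
Knockout difference of each replication gene within culture replicate 1 (horizontal axis) against replicate 2 (vertical axis), as log2 CPM in LysM-cKO minus WT, at R40D3 and at R0D3. Each point is 1 gene; at R0D3 most points lie above the dashed line of equality, with pair medians of 0.068 and 0.69.

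Whether the knockout difference itself changed between R40D3 and R0D3 was tested by the interaction term. It had a median of -0.25 over the 45, with 8 above 0 and 37 below (47% of all genes above 0), and 0 were called with or without the block, as were 0 of all genes (0%). DESeq2 called 0 of the 45. Cdt1 alone had an unadjusted p below 0.05 (0.0451, adjusted p 1.00), with a difference of -0.58 (SE 0.24), where 1.77% of all genes passed that mark (0.82% higher and 0.948% lower). Without LysM-cKO R0D3 replicate 2 the median was 0.21.

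The cultures were also compared by title, R40D3 against R0D3 within each genotype. In WT, Pcna fell and Chaf1b rose at R40D3, while 35 of the 45 were lower at R40D3 and the median was -0.26 (all genes 0.0098, 51.2% above 0). Sums were 854 and 988 CPM at R0D3 and 772 and 780 CPM at R40D3. The 2 called of 45 are a smaller share than the 16.9% of all genes called (11.4% higher and 5.52% lower). Both R40D3 libraries lay below both R0D3 libraries for 21 of the 45 (29.2% of all genes) and above for 6 (32.9%). Within both same-numbered pairs 25 were lower (37.2%) and 8 higher (40%). These comparisons use the same libraries as the knockout comparisons and are not separate evidence.

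Pcna, the sliding clamp (chromosome 2, 132249162 to 132253314), had 171 and 202 CPM in WT at R0D3 and 99.2 and 91.1 CPM at R40D3. In LysM-cKO it had 168 and 282 CPM at R0D3 and 82.9 and 105 CPM at R40D3. In both genotypes the R40D3 values lay well below the R0D3 values. Pcna fell by 0.97 (SE 0.24, adjusted p 0.0302) in WT and by 1.26 (SE 0.24, adjusted p 0.018) in LysM-cKO on the log2 scale. The test of a difference between the genotypes in this fall gave -0.29 (SE 0.33, adjusted p 1.00). Leaving out any 1 of the 4 WT libraries took the adjusted p in WT above 0.05, to between 0.0862 and 0.164, and in LysM-cKO it was 0.0555 without R0D3 replicate 2, 0.0584 without R40D3 replicate 1 and 0.0715 when only the 4 LysM-cKO libraries were fitted. Pcna-ps2, a pseudogene copy of Pcna that could share its reads, stood at 0.244 to 2.06 CPM.

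Chaf1b, the middle subunit of the histone chaperone (chromosome 16, 93883901 to 93906115), had 9.09 and 9.95 CPM in WT at R0D3 and 28.7 and 42.5 CPM at R40D3. In LysM-cKO it had 9.03 and 14.2 CPM at R0D3 and 15.2 and 32.2 CPM at R40D3. All 4 R40D3 libraries lay above all 4 R0D3 libraries. Chaf1b rose by 1.90 (SE 0.39, adjusted p 0.0152) in WT, while in LysM-cKO the difference of 1.03 (SE 0.38) had an adjusted p of 0.152, or 0.0068 with the replicate block. Without LysM-cKO R40D3 replicate 1 that difference was 1.48 (adjusted p 0.026), and without R40D3 replicate 2 it was 0.36 (adjusted p 0.656). The genotypes were not shown to differ in it (interaction -0.87, SE 0.54, adjusted p 1.00). Without WT R0D3 replicate 1, WT R0D3 replicate 2 or WT R40D3 replicate 2, the adjusted p in WT was 0.0955 to 0.115. Its partner Chaf1a differed by 0.15 (SE 0.33) in WT and -0.32 (SE 0.31) in LysM-cKO, so the 2 subunits of 1 complex had unlike values. No gene of GENCODE M21 overlaps the exons of Chaf1b, but Gm49617, a transcript within an intron of Chaf1b on the same strand (93888734 to 93890147), had 0 to 3 counts in the 4 R0D3 libraries, 37 and 55 in WT and 24 and 30 in LysM-cKO at R40D3. Gm49617 was called in both genotypes (adjusted p 0.00805 and 0.0199). Whether its reads and those of Chaf1b were kept apart was not tested. Morc3, the next gene, differed by -0.21 in WT (adjusted p 0.304).

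**Figure D5:**
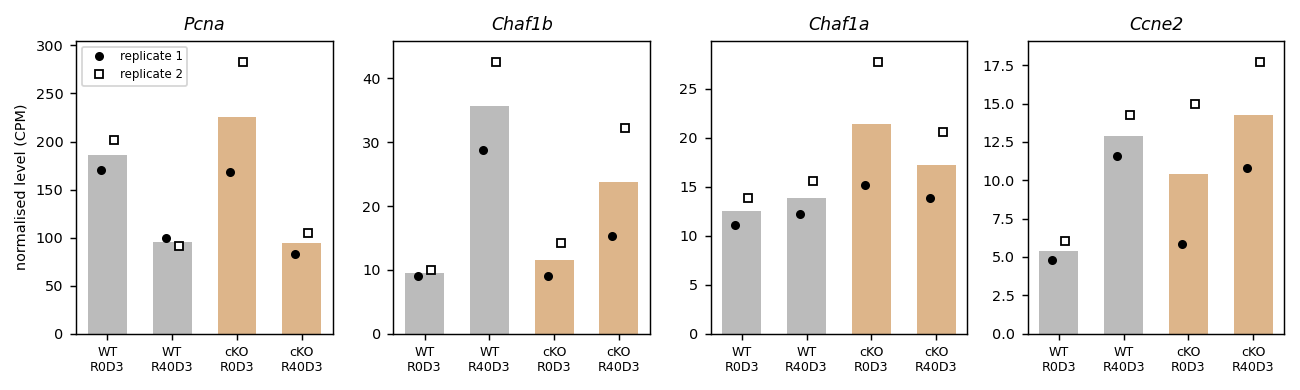
Levels of Pcna, Chaf1b, Chaf1a and Ccne2 (vertical axis, CPM, a different scale in each panel) in the 4 culture groups. Bars are means of 2 libraries and points are single libraries; Pcna is lower and Chaf1b higher in all 4 R40D3 libraries than in all 4 R0D3 libraries.

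Fitting the replicate number as a block raised the count in WT from 2 to 5 of the 45 (28.3% of all genes, 16.7% higher and 11.6% lower). The added genes were Ccne2, Cdt1 and Rpa2. Ccne2 had 4.78 and 6.03 CPM at R0D3 and 11.6 and 14.2 CPM at R40D3 in WT, which did not overlap (1.25, SE 0.45, adjusted p 0.104, or 0.0062 with the block). In LysM-cKO it had 5.86 and 15.0 CPM and 10.8 and 17.7 CPM, which overlapped. Cdt1 was 0.44 higher (SE 0.17, block adjusted p 0.0413) and Rpa2, a subunit of the single-strand binding protein, 0.55 lower on the log2 scale (fitted value -0.55, SE 0.27, block adjusted p 0.0491). Among the licensing genes in WT, Cdt1, Orc6 and Orc1 were above 0 (0.44, 0.35 and 0.27). Cdc6, the loading ATPase, had the lowest value (-0.74, SE 0.55), and Mcm2 to Mcm7 lay between -0.21 and -0.40. For all 6 of these helicase genes both R40D3 libraries lay below both R0D3 libraries (29.2% of all genes). The 6 were measured in the same libraries and are not separate evidence.

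In LysM-cKO, 39 of the 45 were lower at R40D3 and the median was -0.45. Sums were 878 and 1478 CPM at R0D3 and 727 and 931 CPM at R40D3. Pcna was the 1 gene called, where 10.1% of all genes were (6.99% higher and 3.15% lower). With the block 11 were called, 10 lower and 1 higher, where 21.3% of all genes were (13% higher and 8.22% lower). Both R40D3 libraries lay below both R0D3 libraries for 9 of the 45 (22.5% of all genes) and above for 2 (27.3%), and within both pairs 31 were lower (35.6%) and 3 higher (38.2%). The 10 genes lower with the block were Pcna, Mcm2, Mcm3, Mcm5, Mcm7, Gins2, Prim1, Pold1, Chtf18 and Rpa2, and the 1 higher was Chaf1b. Mcm2 had 26.3 and 45.8 CPM at R0D3 and 17.9 and 24.9 CPM at R40D3 (-0.76, SE 0.26, block adjusted p 0.0165). Mcm3 went from 45.3 and 73.1 CPM to 38.2 and 40.8 CPM (-0.58, SE 0.20, block adjusted p 0.0276). In each of these 2 genes R0D3 replicate 2 was far above the others. Without that library the median of the 45 was 0.044, with 27 above 0, and without LysM-cKO R0D3 replicate 1 it was -0.79. Genes with an E2F word had a median of -0.49 and those without -0.39 in LysM-cKO, and in WT the medians were -0.31 and -0.12, over the same 14 and 21 genes.

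Mitosis genes were lower at R40D3 for 18 of 18 in WT (median -0.56) and in LysM-cKO (median -0.78), with 0 called in either, and 1 and 7 called with the block. The other replication genes were lower for 21 of 32 in WT and 24 of 32 in LysM-cKO, with 0 called, and 4 and 3 called lower with the block. The E2F and RB family list was lower for 18 of 24 and 21 of 24, with 1 and 3 called lower with the block. Over all genes, 11.6% were called lower with the block in WT and 8.22% in LysM-cKO. Without the block these shares were 5.52% and 3.15%. Cyclin-dependent kinase inhibitors lay on both sides of 0, with 3 higher and 4 lower in WT and 2 higher and 5 lower in LysM-cKO. Cdkn1a fell in WT, from 290 ± 23.0 CPM at R0D3 to 197 ± 12.1 at R40D3 (SD, n = 2), a difference of -0.56 on the log2 scale (SE 0.14, adjusted p 0.0325). Cdkn2b, the p15 gene, had a value of 1.05 in WT (SE 0.33, adjusted p 0.0677, or 0.0231 with the block) and of 0.99 in LysM-cKO (SE 0.34, adjusted p 0.125, or 0.0466 with the block). Cdkn1b had a value of 0.27 in LysM-cKO (SE 0.10, adjusted p 0.148, or 0.0399 with the block). Cdkn1a was lower at R40D3 in LysM-cKO as well (-0.46, SE 0.14, adjusted p 0.0859, or 0.0171 with the block). Cdkn2d, another inhibitor gene, was lower in WT (-0.71, SE 0.21, adjusted p 0.0558, or 0.0198 with the block). In LysM-cKO, Lin9, a subunit of the complex that binds cell cycle promoters, fell from 21.1 ± 0.460 to 14.3 ± 0.234 CPM (SD, n = 2), also -0.56 (SE 0.14, adjusted p 0.0436). Osteoclast markers rose for 9 of 9 in both genotypes, with medians of 9.02 in WT and 8.33 in LysM-cKO. The part of the change of cell type in the replication gene values was not tested.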

How the data were processed

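RNA was measured in 12 libraries (6 groups of 2). Raw counts of reads for each Ensembl gene, as whole numbers per the file headers, were deposited by the authors in 1 table for forelimb and 1 per replicate number for the cultures. The submitters' processing notes name FastQC 0.11.2, Trimmomatic 0.36, HISAT2 2.1.0, DESeq2 1.12.4 and GRCm38; the counting tool, its annotation and its use of strand are not given in the sources used here. Symbols were found for 99.6% of forelimb and 99.5% of culture identifiers.

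Low counts were filtered with filterByExpr, and libraries were normalised by TMM. Genes were tested with edgeR 4.0.16 (quasi-likelihood test, Benjamini-Hochberg adjustment over all genes tested, threshold 0.05, R 4.3.3), with the 4 forelimb libraries in 1 fit and the 8 culture libraries in another. Standard errors were derived from the log2 fold change and the F statistic. Differences within pairs used log2 CPM with a prior count of 2. The fit was tested on simulated data. No 2 replicates agreed within sampling noise. In the cultures, same-numbered libraries deviated together (correlations 0.343 to 0.609 over genes), so the replicate number was taken to pair them, from the data and not from a label. In forelimb the numbers were not taken to pair libraries.

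Gene names follow a rule: in each comparison of 2 groups the 3 smallest p, any called, the largest difference in each direction, and the gene of highest forelimb level in each role group; from each other list, genes with the smallest p. Plain counts and the genes of block calls were added after values were seen. The members and lists were chosen with earlier results of these data known. Exons, positions and overlaps come from GENCODE M21, promoter windows from RefSeq (GRCm38.p6); windows for 10 members were not used here. Alternatives were other scalings, no filter, DESeq2 1.42.0, the replicate block, the older quasi-likelihood method, fewer libraries, and members with no overlapping exon.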

Additional observations from a re-analysis of the deposited data

Results flagged for a closer look

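Cdt1 was the 1 member whose LysM-cKO or Prx-cKO libraries all lay above WT in 1 setting and all below it in another. Its log2 fold change was 0.65 in forelimb, 0.27 in the cultures at R0D3 and -0.31 at R40D3. Among all genes, the knockout libraries all lay above WT for 22.2% in forelimb and 17.5% at R0D3, and all below for 18.9% at R40D3. The share of all genes with such opposite positions was not counted. The forelimb and R40D3 values come from separate fits and their difference was not tested. The difference between R40D3 and R0D3 was tested by the interaction term (-0.58, SE 0.24) and did not pass (adjusted p 1.00).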

How the results depend on the processing

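The number of members called was 0 in forelimb by edgeR under every setting tried and 2 by DESeq2. For R40D3 against R0D3 in WT, leaving out 1 library at a time gave 0 to 1 called in place of 2, and the replicate block, which fits the pairing of same-numbered cultures, gave 5. In LysM-cKO the main count of 1 became 3 by DESeq2, 11 with the replicate block and 0 when only the 4 libraries compared were fitted, and leaving out 1 library at a time gave 0 to 6. In the knockout comparisons in culture and the interaction, 0 members were called under every setting tried.

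Over all genes, forelimb calls numbered 0 by edgeR, 390 by DESeq2, and 605 and 104 without WT replicate 1 and 2. For the knockout, R40D3 calls were 2, 23 by DESeq2, 30 with the replicate block and 0 with library size alone, 4 libraries or 1 left out. R0D3 calls were 2, 7 by DESeq2 and 0 with 4 libraries or 1 left out. For R40D3 against R0D3 in WT there were 2370, 3976 with the replicate block and 689 to 803 without WT R0D3 replicate 1 or 2 or R40D3 replicate 2. In LysM-cKO there were 1422, 2983 with the replicate block, 532 with 4 libraries and 399 to 754 without R0D3 replicate 1 or 2 or R40D3 replicate 2.

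The median log2 fold change in forelimb was 0.38, 0.27 with library size alone (all genes -0.13) and 0.26 to 0.49 with 1 library left out. With 1 library left out the medians ran from -0.069 to 0.37 for the knockout at R40D3, from -0.068 to 0.73 at R0D3, from -0.35 to -0.058 for R40D3 against R0D3 in WT, from -0.79 to 0.044 in LysM-cKO, and from -0.54 to 0.21 for the interaction. The sign changed without LysM-cKO R40D3 replicate 2 at R40D3, and without LysM-cKO R0D3 replicate 2 at R0D3, in LysM-cKO and in the interaction. Among single genes, Pola1 in forelimb ran from -0.18 to 0.036 (without WT replicate 2), and Mcm10 at R0D3 from -0.068 (without LysM-cKO replicate 2) to 1.98. The causes were not tested. The replicate block brought Ccne2 in WT and Mcm2, Mcm3 and Chaf1b in LysM-cKO past the threshold in the comparisons that named them. It also brought Cdt1 and Rpa2 in WT, and Mcm5, Mcm7, Gins2, Prim1, Pold1, Chtf18 and Rpa2 in LysM-cKO, past it. Among the genes of other lists, it added calls for R40D3 against R0D3, such as Ccnd1 in WT (adjusted p 0.0798, or 0.0042 with the block). In forelimb, where same-numbered libraries correlated at 0.261 over genes, the block called 0 members. Where 1 library was left out, the lone library of its group is assumed to vary like the others. The lowest count of any member was 8 (Dscc1), so small differences in the least abundant genes may have gone undetected. The part of depth and of the spread between replicates in this was not tested.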
